A study of Mus musculus with 12 samples.

Results

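The complement system was followed through 36 mouse genes that encode its components, regulators and receptors. The genes were taken by symbol from a deposited expression table of 57180 genes and 12 libraries, and each of the 36 matched exactly 1 row. From textbook knowledge, 20 of them are made mainly by hepatocytes, 10 mainly by macrophages and other myeloid cells, and 6 by other or mixed sources. The 12 libraries form 4 groups of 3 biological replicates. Livers came from C57 mice treated with CCl4 (carbon tetrachloride, a hepatotoxic solvent) or vehicle, and were profiled by bulk RNA-seq. CX3CR1+ cells of the dorsal skin came from Cx3cr1-creER:Ai9 mice given CCl4 or vehicle, and were profiled by smart-seq, which amplifies full-length cDNA from little RNA. In that strain an inducible Cre recombinase is expressed from the Cx3cr1 locus, and cells in which it was active carry a red reporter for life. The material is called liver after the sample labels, although the design text names hepatocytes. The sources used here do not give the dose of CCl4, the time after it, the age and sex of the mice, how Cre was induced or how the skin cells were sorted. Levels are in TPM (a share of the library corrected for transcript length, with the same total in each), so that levels of different genes can be compared.

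Complement is a cascade of plasma proteins that marks particles for uptake and can perforate membranes. C1q (classical pathway) or mannose-binding lectins and ficolins (lectin pathway) recognise a target and activate serine proteases, which cut C4 and C2. The alternative pathway amplifies the cleavage of C3 through factors B and D and properdin, and C5 to C9 then form the membrane attack complex. The liver supplies most of the plasma proteins of the cascade, whereas C1q and properdin, together with the anaphylatoxin and integrin receptors, are typical of macrophages and other leukocytes.

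The libraries differed in make-up beyond these genes. Mitochondrially encoded transcripts and near copies of them took up 82.1, 80.2 and 68.1% of the TPM in CCl4 livers (replicates 1 to 3), against 28.4, 25.9 and 25.7% in vehicle livers. Because TPM is a share, this lowers all other genes, and the median log2 change of all genes tested in liver was -0.59 as deposited, -0.11 after median-ratio scaling and 0.85 after mitochondrial transcripts were left out and TPM rescaled. Liver changes are therefore given under all 3 scalings. All 8 hepatocyte markers looked at were present in every liver library, with albumin (Alb) at 8884, 10833 and 21657 TPM in CCl4 livers, against 40168, 45635 and 43342 TPM in vehicle livers. The summed TPM of 10 Kupffer cell and macrophage markers lay between 99.2 and 250.8 in CCl4 livers, against 25.7 to 52.2 in vehicle livers, and all 10 were called higher as deposited and without mitochondrial transcripts. The sums of neutrophil markers (33.0 to 353.8 TPM in CCl4 livers, against 0.12 to 0.86 TPM in vehicle livers) and endothelial markers (112.2 to 343.1 TPM in CCl4 livers, against 18.1 to 22.3 TPM in vehicle livers) did not overlap either. Nor did those of 7 monocyte markers (97.9 to 386 TPM in CCl4 livers, against 9.47 to 16.2 TPM in vehicle livers) and 8 stellate cell and fibroblast markers (82.6 to 172 TPM in CCl4 livers, against 7.32 to 10.5 TPM in vehicle livers), and their part in the liver results was not tested. In skin, Cx3cr1 itself was listed at 5.28, 0 and 0.28 TPM in CCl4 skin libraries, against 3.91, 0.27 and 0.91 TPM in vehicle skin libraries. Summed markers of other skin cells were present in all 6 skin libraries, with 5 keratinocyte markers at 357 to 1876 TPM in CCl4 skin libraries, against 830.2 to 1966 TPM in vehicle skin libraries, 5 T and NK cell markers at 494 to 1822 TPM in CCl4 skin libraries, against 555 to 4516 TPM in vehicle skin libraries, and 8 fibroblast markers at 359 to 4060 TPM in CCl4 skin libraries, against 1502 to 5986 TPM in vehicle skin libraries. Within these lists levels were uneven: Krt14, Nkg7 and Dcn were at 228 TPM or more in every skin library, whereas Ncr1 lay between 0 and 1.28 TPM and Pdgfra between 0.76 and 16.2 TPM. CCl4 skin library 3 stood apart, with the macrophage genes Csf1r at 2.12 TPM and Adgre1 at 1.65 TPM, against at least 36.9 and 63.6 TPM in the other 5, and with Mrc1 and Cd209a listed at 0. In bulk RNA, fewer cells of a type and less RNA per cell cannot be told apart.

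In CCl4 livers the complement genes split by their source. As deposited, 19 of the 20 hepatocyte-made genes were called lower and 1 was not called, whereas all 7 myeloid genes that passed the filter on low values were called higher. Of the 36 genes, 31 passed that filter (1 TPM or more in 3 or more of the 6 liver libraries): 8 were called higher, 21 lower and 2 neither way, at an adjusted p under 0.05. Among all 10385 genes tested in liver, 10.3% were called higher and 51.1% lower. The median log2 change was -1.73 for the hepatocyte-made genes and 2.13 for the 7 myeloid genes, against -0.59 for all genes tested. Of the 7 myeloid genes, C5ar1 and Itgb2 passed the filter only through the CCl4 livers, so their difference was a condition of being tested.

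Whether the hepatocyte-made genes were called lower depended on the scaling, while the 7 myeloid genes were called higher under each of the 3. For C5ar1 and Itgb2 among the 7, being high in CCl4 livers was a condition of being tested. C1qa, C1qb, C1qc, Fcna and Cfp passed the filter in either group and were called higher under each scaling. After median-ratio scaling 18 of the 20 hepatocyte-made genes were called lower (26.2% of all genes tested) and the 7 myeloid genes higher (17.7% of all genes). Without mitochondrial transcripts, 3 hepatocyte-made genes were called lower (4.20% of all genes), 2 higher and 15 neither way, and the 7 myeloid genes were again called higher (66.8% of all genes). Set against the median of all genes under the same scaling, the median of the hepatocyte-made genes differed from it by -1.14 as deposited, -1.01 after median-ratio scaling and -0.89 without mitochondrial transcripts. That of the 7 myeloid genes stood 2.71, 2.81 and 3.01 above it in the same order. The 8 hepatocyte markers were also called lower as deposited (median -1.97), and 2 lower and 1 higher without mitochondrial transcripts. All 20 hepatocyte-made genes lay below the median of all genes under the first and second scaling and 19 under the third, with C4b above it there.

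**Figure D1:**
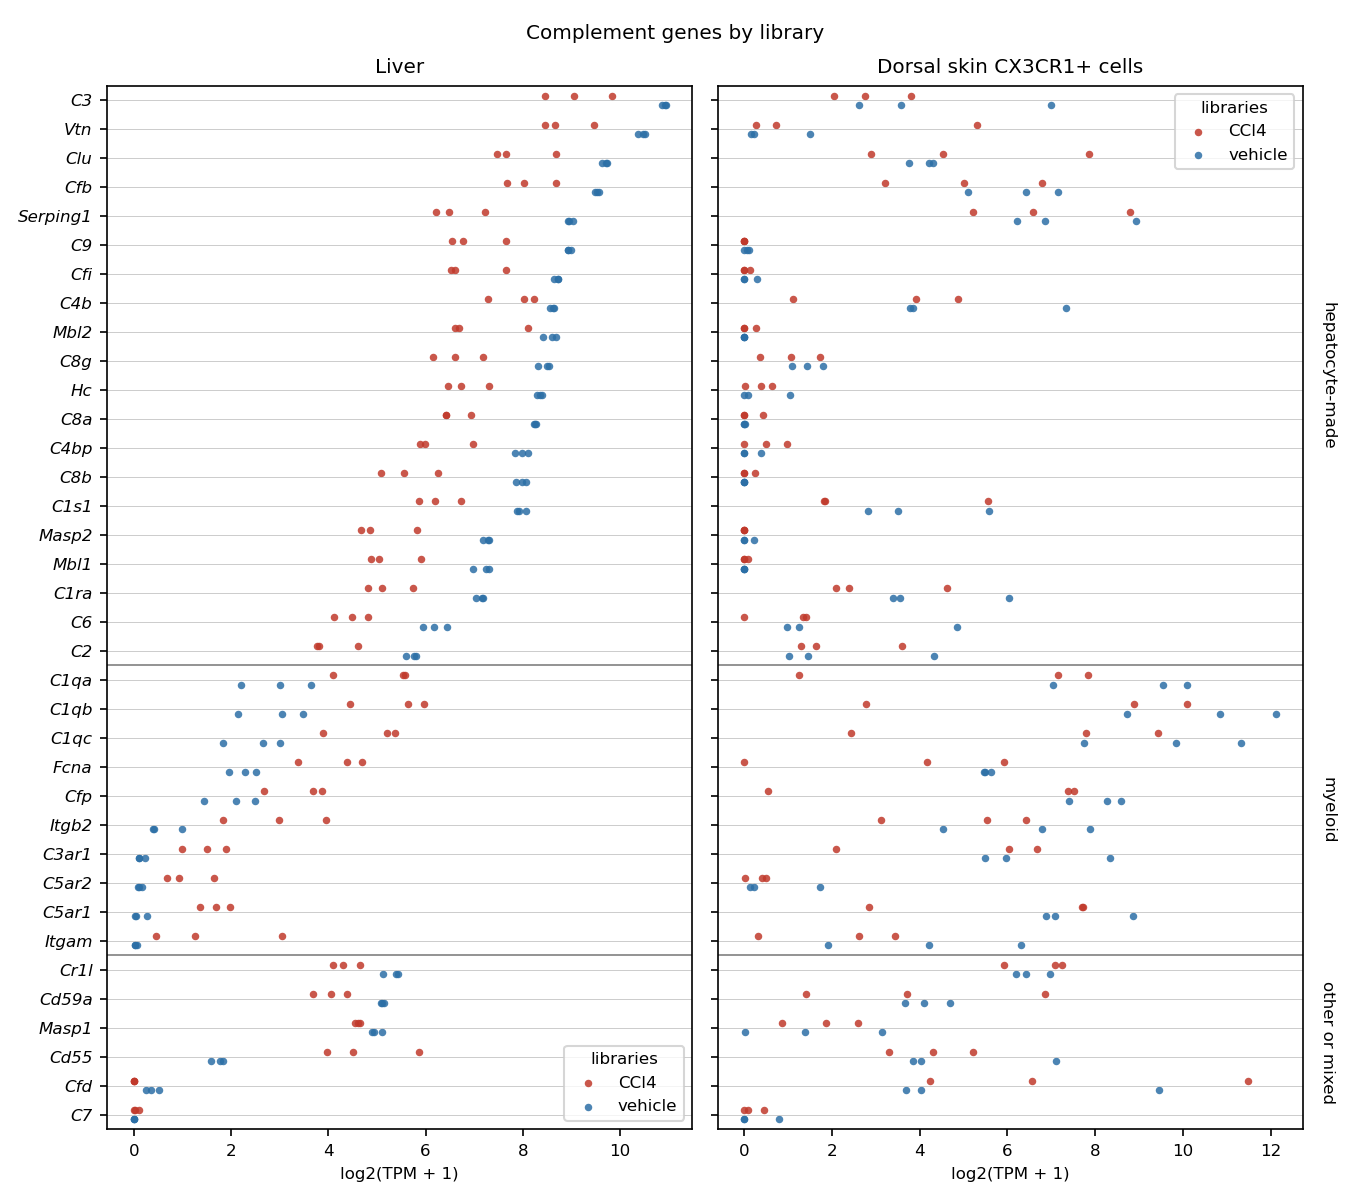
Levels of the 36 complement genes as log2(TPM + 1), 1 point per library (3 CCl4 in red, 3 vehicle in blue), in liver and in CX3CR1+ cells of the dorsal skin, ordered by source and by level in vehicle livers. In liver the CCl4 points lie left of the vehicle points for all 20 hepatocyte-made genes and right of them for all 10 myeloid genes, and in skin the groups overlap for all 36.

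The 3 chains of C1q, the recognition molecule of the classical pathway, were all higher in CCl4 livers. C1qa had 45.5, 46.9 and 16.2 TPM in CCl4 livers, against 3.61, 11.5 and 6.99 TPM in vehicle livers (log2 change 2.13, SE 0.44, adjusted p = 0.00203). C1qb had 48.8, 61.6 and 20.9 TPM in CCl4 livers, against 3.40, 10.2 and 7.23 TPM in vehicle livers (log2 change 2.46, SE 0.43, adjusted p = 0.000814), and C1qc had 35.8, 40.2 and 13.9 TPM in CCl4 livers, against 2.55, 7.04 and 5.28 TPM in vehicle livers (log2 change 2.32, SE 0.41, adjusted p = 0.000864). For each chain the 3 CCl4 livers were above the 3 vehicle livers, with CCl4 replicate 3 lowest of its group and vehicle replicate 2 highest of its own. The ratio of group means was 4.92 for C1qa, 6.30 for C1qb and 6.04 for C1qc. The changes were between 2.69 and 3.03 after median-ratio scaling, and between 3.86 and 4.20 without mitochondrial transcripts. The 3 genes are direct neighbours in the genome, in the order C1qa, C1qc, C1qb. Macrophage markers moved with C1q, and its summed TPM per TPM of Csf1r, the macrophage growth factor receptor, was 11.3, 11.4 and 10.6 in CCl4 livers, against 6.37, 9.03 and 8.59 in vehicle livers. Per TPM of the Kupffer cell gene Clec4f it was 2.51, 3.04 and 2.61 in CCl4 livers, against 2.10, 1.81 and 2.08 in vehicle livers. Both ratios were higher in all 3 CCl4 livers, while the ratios to the macrophage genes Adgre1 and Cd68 overlapped between the groups. The part of the macrophage markers in the C1q result was not tested.

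Promoter windows show the sequence context of the hepatocyte-made and the myeloid genes, which moved in opposite directions in deposited TPM of liver. Without mitochondrial transcripts the median log2 change of the hepatocyte-made genes was -0.045. RefSeq's table for build GRCm38.p6 holds windows of 300 bases, from 250 before to 50 after the start, for 27 of the 36 genes (30 windows), on an older build than the GRCm39 of the expression values. Both strands were searched for 5 motifs: the PU.1 core GAGGAA (a myeloid factor), C/EBP as TTGCNNAA, HNF1 as GTTAATNAT (a hepatocyte factor), STAT as TTCNNNGAA and IRF as GAAANNGAA. The windows of 3 myeloid and 3 hepatocyte-made genes are shown 5′ to 3′ on the gene's strand, chosen because they carry matches, which stand in capitals in either orientation.
C1qb, chr4:136886151-136886450, minus strand: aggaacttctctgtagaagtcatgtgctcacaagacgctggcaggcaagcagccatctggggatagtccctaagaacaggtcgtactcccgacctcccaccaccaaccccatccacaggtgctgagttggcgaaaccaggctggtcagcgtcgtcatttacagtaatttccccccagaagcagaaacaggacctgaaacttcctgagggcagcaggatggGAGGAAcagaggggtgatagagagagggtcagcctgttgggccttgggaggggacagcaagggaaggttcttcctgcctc
C1qc, chr4:136892865-136893164, minus strand: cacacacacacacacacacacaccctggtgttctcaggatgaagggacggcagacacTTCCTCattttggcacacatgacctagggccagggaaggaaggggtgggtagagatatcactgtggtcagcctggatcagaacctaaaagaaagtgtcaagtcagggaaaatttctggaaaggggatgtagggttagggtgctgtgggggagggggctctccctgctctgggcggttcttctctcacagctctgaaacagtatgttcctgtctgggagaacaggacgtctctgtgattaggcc
Fcna, chr2:25627925-25628224, minus strand: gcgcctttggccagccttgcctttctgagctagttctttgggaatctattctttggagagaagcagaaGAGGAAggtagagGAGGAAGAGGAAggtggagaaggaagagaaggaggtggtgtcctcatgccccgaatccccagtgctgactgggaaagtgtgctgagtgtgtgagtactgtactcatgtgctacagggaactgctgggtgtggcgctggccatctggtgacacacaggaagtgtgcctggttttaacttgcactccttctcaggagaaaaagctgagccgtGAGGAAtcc
C3, chr17:57228087-57228386, minus strand: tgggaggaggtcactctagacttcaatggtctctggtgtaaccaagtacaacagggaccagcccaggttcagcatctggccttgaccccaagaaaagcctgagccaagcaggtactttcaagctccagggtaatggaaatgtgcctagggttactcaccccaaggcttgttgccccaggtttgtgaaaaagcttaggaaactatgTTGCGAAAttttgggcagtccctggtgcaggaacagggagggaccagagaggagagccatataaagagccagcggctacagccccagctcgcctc
C9, chr15:6445096-6445395, plus strand: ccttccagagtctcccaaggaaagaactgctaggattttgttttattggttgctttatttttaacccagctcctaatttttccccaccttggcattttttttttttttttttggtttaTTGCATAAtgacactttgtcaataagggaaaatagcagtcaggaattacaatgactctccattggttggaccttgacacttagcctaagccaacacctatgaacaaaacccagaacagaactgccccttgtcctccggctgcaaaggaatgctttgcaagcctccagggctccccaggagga
Hc, chr2:35061363-35061662, minus strand: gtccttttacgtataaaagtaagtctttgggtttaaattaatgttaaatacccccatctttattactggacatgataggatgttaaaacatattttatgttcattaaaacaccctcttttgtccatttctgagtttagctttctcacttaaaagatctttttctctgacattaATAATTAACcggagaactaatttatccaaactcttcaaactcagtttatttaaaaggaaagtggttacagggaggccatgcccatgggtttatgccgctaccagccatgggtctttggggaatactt
The capitals are the PU.1 core in C1qb, C1qc and Fcna, where it occurs 4 times, C/EBP in C3 and C9, and HNF1 in Hc. The PU.1 core was present in 6 of 8 myeloid genes with a window (C1qb, C1qc, C5ar2, Cfp, Fcna and Itgam) and in 1 of 14 hepatocyte-made genes (C1ra), and in 28.3% of all 32851 windows. C/EBP was present in 4 of 14 hepatocyte-made genes (C1ra, C1s1, C3 and C9) and in 1 of 8 myeloid genes (C5ar2), against 10.8% of all windows. HNF1 was present in C4bp and Hc, 2 of the 14 hepatocyte-made genes, and in 0.801% of all windows. STAT occurred in 4 of 14 hepatocyte-made and 0 of 8 myeloid genes (8.30% of all windows), and IRF in 1 of 14 (Vtn) and 1 of 8 (C5ar1), against 8.56%. No matches overlapped. A match is a string of letters and no evidence of binding.

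Other myeloid genes of the system were higher in CCl4 livers as well. Fcna, which encodes the lectin-pathway ficolin A of macrophages, had 24.9, 19.8 and 9.32 TPM in CCl4 livers, against 2.91, 4.70 and 3.91 TPM in vehicle livers (log2 change 1.89, SE 0.33, adjusted p = 0.000814). Cfp, the gene for properdin, which stabilises the alternative C3 convertase, had 11.8, 13.7 and 5.39 TPM in CCl4 livers, against 1.72, 4.61 and 3.27 TPM in vehicle livers (log2 change 1.40, SE 0.34, adjusted p = 0.00493). The CCl4 livers were above the vehicle livers for both genes, and their changes without mitochondrial transcripts were 3.62 and 3.10.

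The receptors for the cleavage products were near 0 in vehicle livers. C5ar1, the receptor of the anaphylatoxin C5a, had 2.21, 2.95 and 1.58 TPM in CCl4 livers, against 0.03, 0.2 and 0.02 TPM in vehicle livers (log2 change 1.57, SE 0.20, adjusted p = 0.000155). Itgb2, the β2 chain of complement receptors 3 and 4, had 6.97, 14.5 and 2.58 TPM in CCl4 livers, against 0.32, 0.98 and 0.34 TPM in vehicle livers (log2 change 2.33, SE 0.42, adjusted p = 0.000929). Both C5ar1 and Itgb2 passed the filter only through the CCl4 livers, so that their difference was a condition of being tested. C3ar1 (C3a receptor), C5ar2 (the other C5a receptor) and Itgam (α chain of complement receptor 3) did not pass the filter. Itgam had 1.40, 7.29 and 0.38 TPM in CCl4 livers, against 0.01, 0.05 and 0.02 TPM in vehicle livers. C3ar1 lay between 0.98 and 2.72 TPM in CCl4 livers and between 0.07 and 0.17 TPM in vehicle livers, and C5ar2 between 0.61 and 2.13 TPM in CCl4 livers and between 0.06 and 0.13 TPM in vehicle livers. For all 5 receptor genes the CCl4 livers were above the vehicle livers, and CCl4 replicate 2 was highest for each. In a fit without the filter C3ar1 and C5ar2 were called higher, as were 8.03% of all genes in that fit (adjusted p = 0.017 and 0.0358) and Itgam was not (adjusted p = 0.121). All 10 myeloid genes were above their vehicle range. Among all genes tested in liver, which do not include C3ar1, C5ar2 and Itgam, 11.4% were.

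The proteases and substrates of the classical and lectin pathways showed the hepatocyte pattern with 2 exceptions. C1ra and C1s1 (the proteases of the C1 complex) and C2 (their substrate) were at 12.7 to 104 TPM in CCl4 livers, against 47.5 to 267 TPM in vehicle livers. They were called lower as deposited (log2 change -1.91, -1.69 and -1.65) and after median-ratio scaling, and not called without mitochondrial transcripts (-0.23, 0.00097 and -0.0092). C4b, which encodes C4, had 154, 259.6 and 301 TPM in CCl4 livers, against 373, 390.2 and 399 TPM in vehicle livers (log2 change -0.75, SE 0.33, adjusted p = 0.0654), and was not called. Its change was -0.14 after median-ratio scaling (adjusted p = 0.578) and 0.95 without mitochondrial transcripts (adjusted p = 0.00257), so that its direction turned with the scaling. The near-identical C4a, with which C4b may share reads, had 14.5, 25.3 and 26.0 TPM in CCl4 livers, against 14.4, 15.6 and 13.1 TPM in vehicle livers, and the split between the 2 copies is uncertain.

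Mbl1 and Mbl2, the mannose-binding lectins, and Masp2, the protease that starts the lectin pathway by cutting C4, were lower in CCl4 livers as deposited. Mbl1 lay between 28.5 and 59.3 TPM in CCl4 livers and between 125 and 157 TPM in vehicle livers. Mbl2 had 102, 96.2 and 273 TPM in CCl4 livers, against 412, 341 and 388 TPM in vehicle livers (log2 change -1.44, SE 0.40, adjusted p = 0.00987). It was not called after median-ratio scaling (-0.83, adjusted p = 0.0678), its change was 0.26 without mitochondrial transcripts, and its adjusted p was 0.0605 without CCl4 replicate 1 and 0.0522 without the filter. Masp2 had 24.3, 27.8 and 55.6 TPM in CCl4 livers, against 145, 155 and 158 TPM in vehicle livers (log2 change -2.15, SE 0.35, adjusted p = 0.000567), and was still called lower without mitochondrial transcripts (-0.47, adjusted p = 0.0178). Masp1, whose products include a lectin-pathway protease and which is also made outside the liver, had 22.4, 24.3 and 23.5 TPM in CCl4 livers, against 28.9, 33.2 and 29.5 TPM in vehicle livers (log2 change -0.37, SE 0.25, adjusted p = 0.218). All 3 CCl4 livers were below the vehicle livers by a small margin, but the change was 0.22 after median-ratio scaling (adjusted p = 0.31) and 1.31 without mitochondrial transcripts (adjusted p = 0.00191).

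C3, the central component, was the most abundant of the 36 genes in vehicle livers. It had 529, 348 and 917 TPM in CCl4 livers, against 1859, 1936 and 1960.3 TPM in vehicle livers (log2 change -1.79, SE 0.36, adjusted p = 0.00159), and its change was -1.18 after median-ratio scaling (adjusted p = 0.0147) and -0.08 without mitochondrial transcripts (adjusted p = 0.728). Cfb (factor B, which forms the alternative C3 convertase) had 203, 259 and 412 TPM in CCl4 livers, against 713, 731 and 758 TPM in vehicle livers (log2 change -1.39, SE 0.33, adjusted p = 0.00406), and its direction turned to 0.31 without mitochondrial transcripts (adjusted p = 0.0462). As deposited, all 3 CCl4 livers were below every vehicle liver for both genes. Cfd (factor D, the protease that cuts factor B, in mice a product of fat cells) was listed at 0 in all 3 CCl4 livers, against 0.19, 0.43 and 0.28 TPM in vehicle livers, too low to pass the filter.

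The terminal components and the soluble regulators were lower throughout as deposited. Hc (C5), C6, C8a, C8b, C8g and C9, which build the membrane attack complex, were at 16.2 to 199.9 TPM in CCl4 livers, against 60.3 to 506 TPM in vehicle livers, and all 6 were called lower. C7 was at most 0.08 TPM in any liver library and was not tested. The largest change among them was that of C8b, the β chain of C8, with 45.8, 32.7 and 75.2 TPM in CCl4 livers, against 230.1, 266 and 252 TPM in vehicle livers (log2 change -2.34, SE 0.35, adjusted p = 0.00036). C8b was called lower under the other scalings too, at -1.73 after median-ratio scaling (adjusted p = 0.00251) and -0.65 without mitochondrial transcripts (adjusted p = 0.0146). C8a, the α chain, which neighbours C8b in the genome, had 84.0, 84.8 and 121 TPM in CCl4 livers, against 299, 307 and 305 TPM in vehicle livers (log2 change -1.66, SE 0.30, adjusted p = 0.000973). Its change was 0.038 without mitochondrial transcripts (adjusted p = 0.797), and the other 4 lay between -0.26 and 0.19 there, not called.

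Serping1 (C1 inhibitor, which blocks C1r, C1s and the MASPs) had 88.7, 73.1 and 147 TPM in CCl4 livers, against 484, 495 and 524 TPM in vehicle livers (log2 change -2.33, SE 0.33, adjusted p = 0.000295). The change was -1.72 after median-ratio scaling (adjusted p = 0.00186) and -0.64 without mitochondrial transcripts (adjusted p = 0.00598), so that Serping1, C8b and Masp2 were the hepatocyte-made genes called lower under each of the 3 scalings. Cfi (factor I, which inactivates C3b and C4b), C4bp (its cofactor for C4b), Vtn (vitronectin) and Clu (clusterin), both of which keep terminal complexes off membranes, changed by -1.77, -1.70, -1.59 and -1.75 as deposited and were called lower. Without mitochondrial transcripts these 4 lay between -0.066 and 0.12 and were not called. For all 20 hepatocyte-made genes the 3 CCl4 livers were below the 3 vehicle livers in deposited TPM, against 58.8% of all genes tested.

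The membrane regulators did not move together. Cd55 (decay-accelerating factor, which dissociates C3 convertases on cells) had 21.7, 57.3 and 14.8 TPM in CCl4 livers, against 2.41, 1.99 and 2.55 TPM in vehicle livers (log2 change 3.06, SE 0.39, adjusted p = 0.000178), the largest rise among the 31 genes tested. All 3 CCl4 livers were above the vehicle livers, with replicate 2 the highest, and the gene was higher under the other scalings too (3.56 and 4.84). Cd59a (which blocks C9 insertion) had 11.9, 19.8 and 15.6 TPM in CCl4 livers, against 33.2, 33.0 and 34.3 TPM in vehicle livers (log2 change -1.07, SE 0.27, adjusted p = 0.00603), and Cr1l (Crry, the rodent C3b and C4b cofactor) had 16.1, 18.7 and 24.1 TPM in CCl4 livers, against 33.8, 40.8 and 42.1 TPM in vehicle livers (log2 change -0.96, SE 0.27, adjusted p = 0.0105). Both were below every vehicle liver in all 3 CCl4 livers as deposited, were not called after median-ratio scaling (-0.48 and -0.37), and turned to 0.58 and 0.70 without mitochondrial transcripts, where Cr1l was called higher (adjusted p = 0.00472) and Cd59a was not called (adjusted p = 0.0698). Cr1l lost its call without vehicle replicate 2 (adjusted p = 0.0571) or 3 (adjusted p = 0.0723). Cd55 and Cd59a each have a near copy beside them in the genome, Cd55b and Cd59b, with which reads may be shared.

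**Figure D2:**
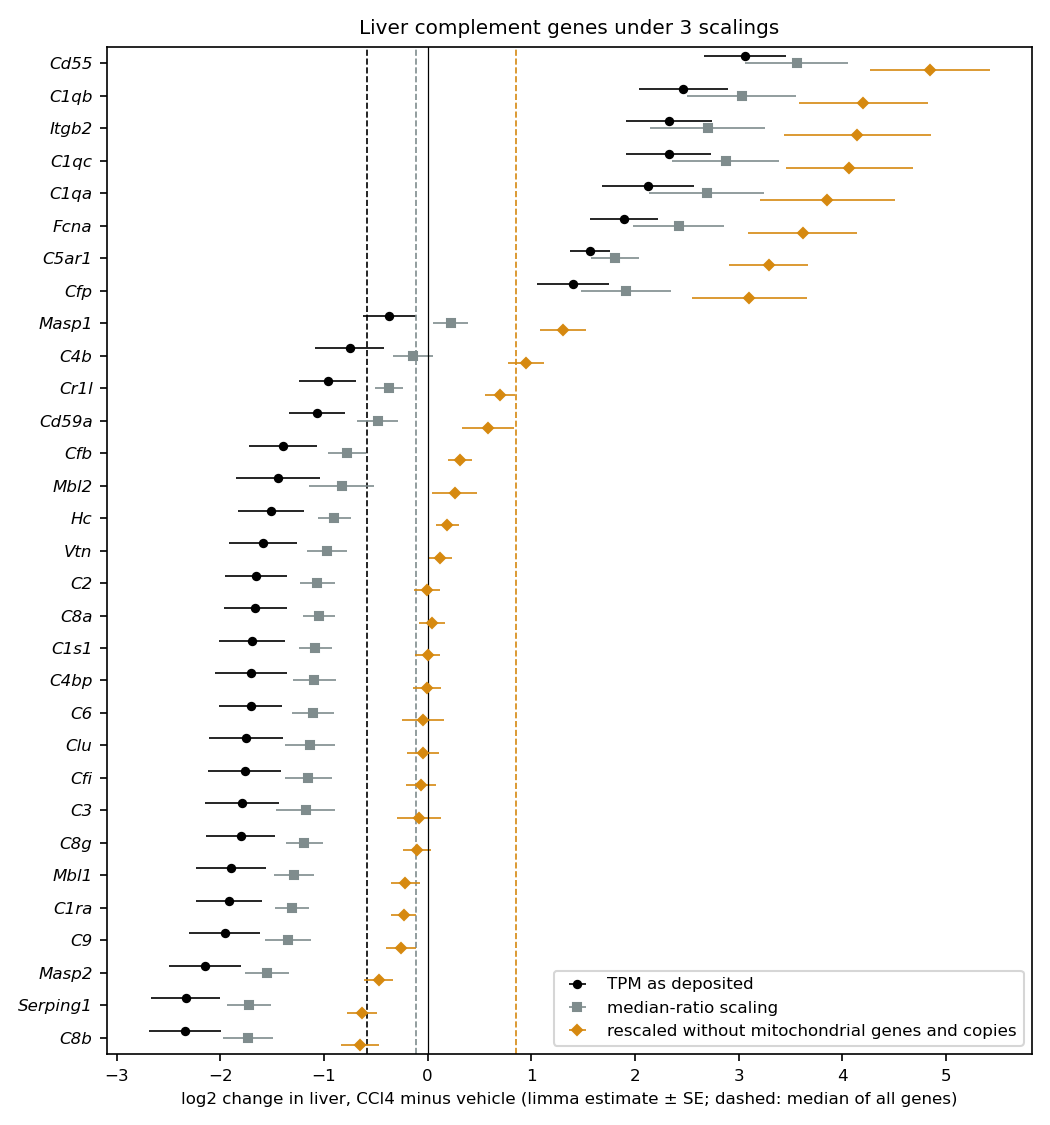
Log2 change (CCl4 minus vehicle, limma estimate ± SE, 3 livers each) of the 31 complement genes tested in liver, under 3 scalings, with dashed lines at the median of all genes for each. Cd55 and the 7 myeloid genes lie right of 0 under all 3, and the hepatocyte-made genes move from a median of -1.73 to one of -0.045 when mitochondrial transcripts are left out.

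Ratios within a library do not depend on how libraries are scaled against each other. In deposited TPM the 20 hepatocyte-made genes summed to 2351, 2376 and 4512 TPM in CCl4 livers, against 8954, 9491 and 9573 TPM in vehicle livers. As a share of all TPM outside mitochondrial transcripts they made up 1.31, 1.20 and 1.41% in CCl4 livers, against 1.25, 1.28 and 1.29% in vehicle livers, with overlapping groups. Per TPM of albumin the same sum was 0.265, 0.219 and 0.208 in CCl4 libraries, against 0.223, 0.208 and 0.221 in vehicle libraries, again overlapping. The 3 C1q genes summed to 5.53, 6.26 and 1.13 TPM per 100 TPM of the hepatocyte-made genes in CCl4 livers, against 0.107, 0.303 and 0.204 TPM in vehicle livers. That ratio was higher in each CCl4 liver than in any vehicle liver, and CCl4 replicate 3 was nearest to the vehicle range.

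The proportions shifted in some pairs of partner genes, among them 3 pairs in which both genes are hepatocyte-made. C8b per TPM of C8a was 0.545, 0.386 and 0.619 in CCl4 libraries, against 0.77, 0.866 and 0.828 in vehicle libraries. Serping1 per TPM of C1s1, one of its targets, was 1.55, 1.02 and 1.41 in CCl4 libraries, against 2.08, 1.85 and 2.17 in vehicle libraries. Both ratios were lower in every CCl4 liver than in any vehicle liver. C4b per TPM of C3 was 0.292, 0.745 and 0.328 in CCl4 libraries, against 0.201, 0.202 and 0.204 in vehicle libraries, and Masp1 (of mixed source) per TPM of the hepatocyte-made Masp2 was 0.92, 0.872 and 0.423 in CCl4 libraries, against 0.2, 0.214 and 0.187 in vehicle libraries. These 2 ratios were higher in every CCl4 liver, with a spread among CCl4 livers far wider than among vehicle livers. The ratio of Cd55 to Cd59a, membrane regulators of mixed source, was 1.83, 2.89 and 0.948 in CCl4 libraries, against 0.0725, 0.0604 and 0.0743 in vehicle libraries, also without overlap. C8g per C8a and C3 per albumin overlapped between the groups. With 3 libraries a group, no overlap is the most that these values can show, and the pairs were chosen with earlier results known.

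**Figure D3:**
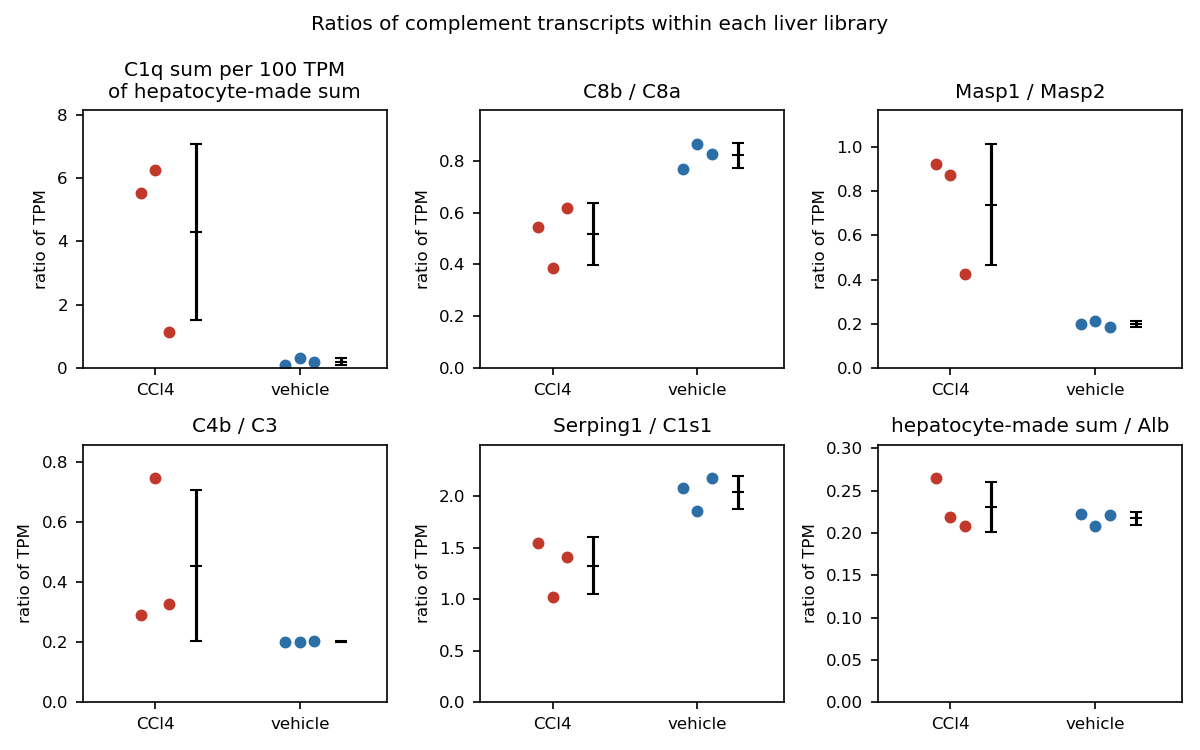
Ratios of TPM within each liver library (points, 3 CCl4 in red and 3 vehicle in blue; black: mean ± SD, n = 3). CCl4 livers lie above vehicle livers for C1q per 100 TPM of hepatocyte-made genes, Masp1 / Masp2 and C4b / C3, below them for C8b / C8a and Serping1 / C1s1, and among them for the hepatocyte-made sum per albumin.

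The CCl4 livers also differed among themselves in deposited TPM. Replicate 3 was the highest CCl4 liver for 20 of 20 hepatocyte-made genes and the lowest for 10 of 10 myeloid genes, and it had the smallest mitochondrial share (68.1%). TPM outside mitochondrial transcripts made up 17.9, 19.8 and 31.9% of CCl4 livers 1 to 3, and the deposited level of all other genes depends on that share. The orders given here were not counted over all genes or under the other scalings. Replicate 2 was the highest for 9 of 10 myeloid genes. Among vehicle livers, replicate 2 was the highest for 10 of 10 myeloid genes and replicate 1 the lowest for 19 of 20 hepatocyte-made genes. Without CCl4 replicate 3, C4b and Masp1 were called lower as well (log2 change -0.95 and -0.37, adjusted p = 0.00777 and 0.0365).

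In CX3CR1+ cells of the dorsal skin no complement gene was called. Of the 36 genes 24 passed the filter in skin, and 0 of them were called by limma in either direction, as were 0% of all 13767 genes tested (288 had an unadjusted p under 0.05, and 0 of the 24). For all 36 genes the CCl4 and vehicle libraries overlapped. Among all genes tested, to which only 24 of the 36 belong, 5.28% did not overlap. A list this short cannot tell 0 from that share. The median log2 change was -1.33 for the 24 genes and -0.048 for all genes, but that of the 24 genes rested on single libraries. It was -0.33 without CCl4 replicate 3 (-0.036 for all genes), -0.47 without vehicle replicate 2 (0.14 for all genes) and -2.03 without CCl4 replicate 2 (-0.039 for all genes), and lay between -1.77 and -1.35 without 1 of the other 3 libraries. In simulated skin data 0 of 100 genes with a log2 change of 2 were recovered. The simulation gave both groups the spread of the vehicle skin libraries, with independent noise for each gene. It therefore does not give the power of the real comparison.

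C1q was abundant in 5 of the 6 skin libraries. The 3 chains summed to 834, 1999.7 and 11.6 TPM in CCl4 skin libraries, against 764, 3506 and 8093 TPM in vehicle skin libraries. The lowest library by far was CCl4 replicate 3, and vehicle replicates 2 and 3 were the highest. The log2 change was -3.48 (SE 1.58, 95% interval -7.04 to 0.08, adjusted p = 0.9999) for C1qa, -3.32 (SE 1.68, 95% interval -7.11 to 0.47, adjusted p = 0.9999) for C1qb and -3.08 (SE 1.62, 95% interval -6.72 to 0.56, adjusted p = 0.9999) for C1qc. Without CCl4 replicate 3 the values were -1.40, -1.08 and -1.02 (SE 0.92, 0.96 and 1.03). The macrophage receptor Csf1r was also lowest in that library, at 59.6, 36.9 and 2.12 TPM in CCl4 skin libraries, against 76.7, 483 and 44.5 TPM in vehicle skin libraries. Across the skin libraries the 2 did not keep a steady proportion. C1q per TPM of Csf1r was 14.0, 54.3 and 5.49 in CCl4 skin libraries, against 9.96, 7.25 and 182 in vehicle skin libraries.

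The receptors and the other myeloid genes had the same library at the bottom. C5ar1 had 208, 209 and 6.15 TPM in CCl4 skin libraries, against 117, 467 and 134 TPM in vehicle skin libraries, and C3ar1 had 101, 65.0 and 3.26 TPM in CCl4 skin libraries, against 61.6, 323 and 43.8 TPM in vehicle skin libraries. Itgb2 had 85.1, 45.2 and 7.72 TPM in CCl4 skin libraries, against 109, 233 and 22.2 TPM in vehicle skin libraries, and Cfp had 165, 183 and 0.45 TPM in CCl4 skin libraries, against 169, 309 and 381 TPM in vehicle skin libraries. Fcna was listed at 0 in CCl4 replicate 3 and lay between 17.0 and 59.4 TPM in the other 5 libraries. CCl4 replicate 3 was the lowest CCl4 library for 10 of 10 myeloid genes, an order not counted over all genes. Without that library the log2 change was 0.10 for C5ar1 and -0.24 for C3ar1. C5ar2 was at most 2.32 TPM in any skin library.

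Another CCl4 skin library was the highest for many of the other genes. CCl4 replicate 2 was highest of its group for 12 of 20 hepatocyte-made genes and 6 of 6 genes of other source. These counts include genes near 0 in that library, such as Mbl1 (0.06 TPM), C8b (0.19 TPM) and C7 (0.36 TPM), and the order was not counted over all genes. Cfd had 92.7, 2873 and 17.9 TPM in CCl4 skin libraries, against 11.8, 15.3 and 704 TPM in vehicle skin libraries, and Clu had 22.2, 230.3 and 6.47 TPM in CCl4 skin libraries, against 12.5, 18.8 and 17.4 TPM in vehicle skin libraries. The fat cell gene Adipoq stood at 3.74, 93.4 and 2.17 TPM in CCl4 skin libraries, against 2.18, 2.35 and 12.8 TPM in vehicle skin libraries, again highest in CCl4 replicate 2 and, among vehicle libraries, in replicate 3. The part of fat cells in the Cfd and Clu levels was not tested. Serping1 (36, 440.3 and 94.3 TPM in CCl4 skin libraries, against 72.8, 486 and 114 TPM in vehicle skin libraries) and Cfb (31.4, 110.2 and 8.29 TPM in CCl4 skin libraries, against 33.1, 142 and 85.3 TPM in vehicle skin libraries) were the hepatocyte-made genes with the highest median in skin, again highest in the libraries numbered 2 of each group.

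**Figure D4:**
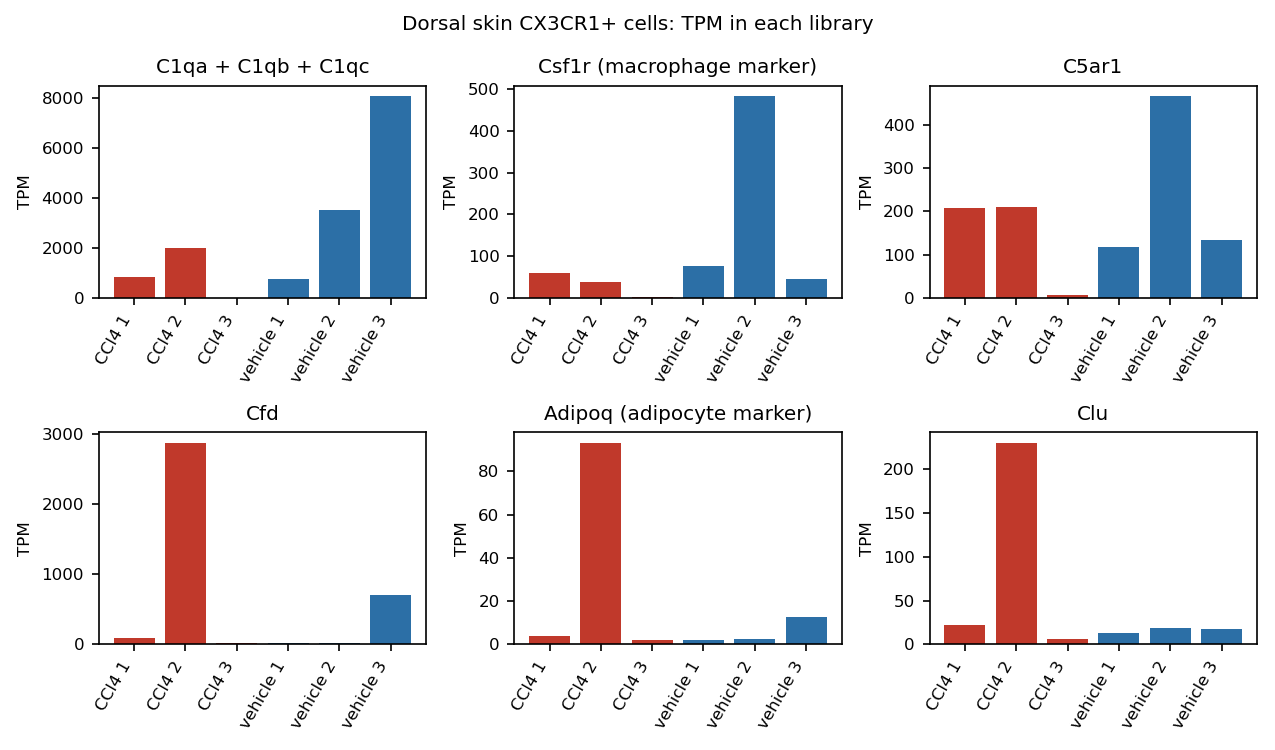
TPM of 6 transcripts or sums in each of the 6 skin libraries (bars, 3 CCl4 in red, 3 vehicle in blue, numbered by replicate). CCl4 library 3 is lowest for C1q (11.6 TPM), Csf1r and C5ar1, and CCl4 library 2 is highest for Cfd, Adipoq and Clu.

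The CCl4 effect was compared directly between the tissues over the 21 complement genes that passed the filter in both. As deposited, 0 of the 21 were called by limma, and 9 of them had an unadjusted p under 0.05. Of all 9255 genes 0.216% were called, and 1872 had an unadjusted p under 0.05. The estimated difference (liver effect minus skin effect, log2) was 5.60 (SE 1.92, adjusted p = 0.15) for C1qa, 5.78 (SE 2.05, adjusted p = 0.159) for C1qb and 5.40 (SE 1.96, adjusted p = 0.165) for C1qc, and without skin CCl4 replicate 3 it was 3.52, 3.55 and 3.34. For Cd55 it was 3.78 (SE 1.13, adjusted p = 0.115) and for Itgb2 3.70 (SE 1.29, adjusted p = 0.156). Cd55 was called higher after median-ratio scaling, as were 1.78% of all genes (adjusted p = 0.0485), and both were called higher without mitochondrial transcripts, as were 5.88% of all genes (adjusted p = 0.0221 and 0.0422). Itgb2 passed the liver filter only through the CCl4 livers, so that its rise there was a condition of this test, and in a fit with neither filter nor mitochondrial transcripts Cd55 and Itgb2 were not called (adjusted p = 0.0875 and 0.137). None of the C1q differences was called, with or without the skin library that stands apart.

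Levels in the 2 tissues are a description, since tissue, strain and assay cannot be told apart. For 15 of the 36 genes all 6 liver libraries were above all 6 skin libraries (6.08% of the 14897 genes tested in either tissue). Of these 14 are hepatocyte-made, from C3 at 529, 348 and 917 TPM in CCl4 livers to C9, which was listed at no more than 0.08 TPM in any skin library, and the other is Masp1. For 4 genes all liver libraries were below all skin libraries (39.6% of all genes), namely C3ar1, C5ar1, Cfd and Cr1l. The C1q chains were higher in 5 of the 6 skin libraries than in any liver library, the exception being CCl4 skin replicate 3.

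Of 26 further complement genes, 16 passed the filter in liver, where 4 were called higher and 11 lower as deposited (10.3 and 51.1% of all genes), with a median log2 change of -1.48 against -0.59 for all genes. After median-ratio scaling 5 were higher and 8 lower (17.7 and 26.2% of all genes), and without mitochondrial transcripts 7 were higher and 3 lower (66.8 and 4.20% of all genes). The 6 with the lowest p were Colec11, Susd4, Cd93, Cd59b, Colec10 and Colec12. Colec11 and Colec10, the collectins that recognise sugars in the lectin pathway, had 18.6, 21.5 and 10.5 TPM in CCl4 livers, against 1.42, 1.78 and 1.26 TPM in vehicle livers (log2 change 2.79, SE 0.27, adjusted p = 3.58e-05) and 9.61, 19.5 and 5.35 TPM in CCl4 livers, against 1.22, 0.86 and 0.98 TPM in vehicle livers (log2 change 2.47, SE 0.34, adjusted p = 0.000261). Cd93, a surface lectin of endothelial and myeloid cells, had 6.80, 10.3 and 4.04 TPM in CCl4 livers, against 0.42, 0.24 and 0.32 TPM in vehicle livers (log2 change 2.53, SE 0.26, adjusted p = 5.73e-05). For these 3 genes the CCl4 livers were above the vehicle livers, and the changes stayed positive under the other scalings (2.86 to 4.60). Susd4, a regulator of the C3 convertases, had 0.14, 0.2 and 0.12 TPM in CCl4 livers, against 2.50, 3.37 and 2.80 TPM in vehicle livers (log2 change -1.75, SE 0.17, adjusted p = 4.33e-05), and Cd59b, the second mouse copy of Cd59, had 0.31, 0.11 and 1.84 TPM in CCl4 livers, against 8.33, 8.78 and 7.86 TPM in vehicle livers (log2 change -2.54, SE 0.30, adjusted p = 0.000117). Both were called lower under all 3 scalings. Cd93 passed the filter only through the CCl4 livers and Susd4 only through the vehicle livers, so that their difference was a condition of being tested. The group with higher values also decided the passing of Colec10 (1 vehicle liver at 1 TPM or more) and Cd59b (1 such CCl4 liver). Their tests carry the same limit. Colec12, a scavenger receptor, was lower as deposited (-1.65, adjusted p = 0.00037) and not called without mitochondrial transcripts (-0.13). In skin 9 of the 26 passed and 0 were called, and the lowest p was that of Itgax, the α chain of complement receptor 4, with 3.36, 0.49 and 0.18 TPM in CCl4 skin libraries, against 6.85, 16.8 and 2.18 TPM in vehicle skin libraries. The vehicle libraries decided its passing (1 CCl4 skin library at 1 TPM or more, against 3 vehicle skin libraries), so that its test carries the same limit.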

How the data were processed

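The authors deposited 1 table of TPM for 57180 genes and 12 libraries. Reads were processed with fastp, HISAT2, StringTie and RSEM on GRCm39 (per the submitters' processing notes), though neither versions nor roles are given. TPM carries no read depth: precision from counting is unknown, and a listed 0 may reflect a failed estimate. A symbol was found for 51884 gene IDs. The labels describe 1 poly(A) protocol for all libraries, which does not describe smart-seq.

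TPM were analysed as log2(TPM + 1) with limma 3.58.1 in R 4.3.3 (lmFit, eBayes with trend, two-sided, Benjamini-Hochberg over all genes tested, called at 0.05), and fold changes on that scale understate changes of low genes. Liver and skin were fitted separately, and the difference of their effects over 4 group means. Genes needed a TPM of at least 1 in 3 of the 6 libraries of a tissue (of both for the difference). Mitochondrial transcripts left out in the rescaled TPM are 37 genes and 10 near copies (blastn, at least 95% identity over 80% of the shorter length). On simulated liver data 80 of 100 genes with a log2 change of 1 and 98 of 100 with a change of 2 were called. The liver and skin simulations used the spread of the vehicle libraries for both groups and independent noise for each gene. Recovery in the real libraries can differ. Alternatives were a pseudocount of 0.1, no filter, both scalings, a replicate block, each library left out, and the skin libraries numbered 1 left out; a fit without filter and without mitochondrial transcripts was added after seeing the data. All 36 genes are accounted for; of the further genes, the 6 with the lowest p are named. The members, source groups, motifs and lists were chosen with earlier results of these data known. Some other regulators are not analysed here.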

Additional observations from a re-analysis of the deposited data

How the results depend on the processing

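TPM without depth limits what can be said of low genes, and 3 libraries a group limit every test. Without mitochondrial transcripts the number of complement genes called in liver fell to 15, of which 12 were higher and 3 lower (66.8 and 4.20% of all genes). The number of all genes called rose from 6377 to 7357. Under that scaling 10 log2 changes of complement genes took the other sign: C1s1 0.00097, C4b 0.95, Mbl2 0.26, Masp1 1.31, Cfb 0.31, Hc 0.19, C8a 0.038, Vtn 0.12, Cd59a 0.58 and Cr1l 0.70. Masp1 turned to 0.22 after median-ratio scaling, where 27 of 31 genes kept their direction and call. In skin C2 turned to 0.018 after median-ratio scaling. A pseudocount of 0.1 changed no call of the 31 genes in liver.

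For the difference between tissues, the number of all genes called was 20 as deposited, 176 with a pseudocount of 0.1, 41 without a filter, 206 after median-ratio scaling, 548 without mitochondrial transcripts, 345 with a replicate block and 62 without the skin libraries numbered 1. Complement genes called higher numbered 0, but 1 after median-ratio scaling, 2 without mitochondrial transcripts and 2 with the block. Signs turned without mitochondrial transcripts for C1ra 1.06, C1s1 0.90, C2 0.079, Masp1 1.05, C3 1.45, Cfb 1.54, C6 1.41, C8g 0.29, Cd59a 0.75 and Cr1l 0.49, after median-ratio scaling for C3 0.057 and Cfb 0.21, with a pseudocount of 0.1 for C6 0.67, and without the skin libraries numbered 1 for C3 0.091, Cfb 0.40 and C6 0.53, none of them called. The cause was not tested.

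With 1 library left out at a time, liver calls ranged from 4874 to 7607 genes and from 28 to 31 complement genes (8 higher, 20 to 23 lower), skin calls stayed at 0, and the difference gave 4 to 419 genes and 0 to 2 complement genes. For the difference, 419 genes were called without skin vehicle replicate 3 (Cd55 and Itgb2 among them), 322 without skin CCl4 replicate 1 (Fcna among them), 233 without liver CCl4 replicate 3 and 73 without skin CCl4 replicate 2. Without 1 of the other libraries the number was 4 to 9, except for 22 without skin CCl4 replicate 3. Log2 changes that took the other sign in at least 1 such fit ranged, for the difference, over C1ra (-1.48 to 0.16), C1s1 (-1.61 to 0.44), C3 (-1.57 to 0.62), C4b (-0.24 to 1.71), C6 (-1.51 to 0.42), Cd59a (-2.19 to 0.52), Cfb (-1.07 to 0.72) and Masp1 (-1.44 to 0.12), and in skin over C2 (-0.80 to 0.95), C5ar1 (-2.34 to 0.10), Cd55 (-1.29 to 0.33), Cd59a (-1.59 to 1.12), Cfd (-0.33 to 3.57), Clu (-0.37 to 2.11), Cr1l (-0.027 to 0.63), Masp1 (-0.49 to 1.07) and Serping1 (-1.43 to 0.35).

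Replicate numbers follow the sample titles, and the library names carry other numbers for some samples. By title, libraries with the same number deviated from their group means with r = -0.038, 0.080 and 0.068 in liver and 0.587, 0.0923 and 0.35 in skin, so that not every pair passed 0.1, and the numbers were not treated as a pairing. By library name, the skin pair numbered 1 is the same, and the other shared number joins CCl4 replicate 3 and vehicle replicate 2 (r = -0.185). The skin libraries numbered 1 had 28357 (CCl4) and 28870 (vehicle) genes above 0, against 21328 to 23494 in the other 4. With the replicate block the 8 higher and 21 lower calls in liver and the 0 in skin were unchanged in number.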

Other observations

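Proportions within the C1q and lectin families are added here as values. C1qb per TPM of C1qa was 1.07, 1.31 and 1.29 in CCl4 livers, 0.942, 0.89 and 1.03 in vehicle livers, 3.37, 4.74 and 4.25 in CCl4 skin libraries and 3.22, 2.48 and 4.11 in vehicle skin libraries. All 6 skin values were above all 6 liver values, including that of the CCl4 skin library with little C1q. C1qc per TPM of C1qa was 0.786, 0.857 and 0.857 in CCl4 livers, 0.706, 0.614 and 0.755 in vehicle livers, 1.58, 3.01 and 3.18 in CCl4 skin libraries and 1.62, 1.23 and 2.35 in vehicle skin libraries, with the same order of tissues. Tissue, strain and assay cannot be told apart in either ratio. Mbl2 per TPM of Mbl1, the mannose-binding lectins, was 3.57, 3.0 and 4.60 in CCl4 libraries, against 3.29, 2.16 and 2.58 in vehicle libraries of liver, with overlapping groups. C1s1 per TPM of C1ra, the paired proteases of the C1 complex, was 2.11, 2.16 and 1.99 in CCl4 libraries, against 1.78, 1.84 and 1.70 in vehicle libraries of liver, higher in every CCl4 liver than in any vehicle liver. Vsig4, the complement receptor of Kupffer cells, which was picked after its values were seen, had 28.5, 25.4 and 9.64 TPM in CCl4 livers, against 2.61, 4.66 and 3.11 TPM in vehicle livers (log2 change 2.21, SE 0.36, adjusted p = 0.000627).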
